A study of Mus musculus with 2 samples.

Results

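The 10 immediate early transcription factor genes Fos, Fosb, Jun, Junb, Jund, Egr1, Egr2, Egr3, Nr4a1 and Ier2 were followed across the immune cells of mouse colorectal tumors under 2 diets. The 10 genes were listed by name with their levels in these data already known, and all 10 were found among the 30905 genes measured. CD45+ leukocytes (CD45 is a surface protein shared by white blood cells) were sorted from tissue titled as tumor of male C57BL/6 mice, and their RNA was counted by droplet single-cell sequencing with 10x 3′ V3 chemistry. All mice had received the colon carcinogen azoxymethane (AOM, 12 mg/kg) and then 2.5% DSS, a sulfated dextran that damages the gut lining, in 3 cycles of 7 days with 14 days of water after each. The control mice ate ad libitum, and the others were put on a diet that mimics fasting (FMD) starting at cycle 2. Each diet gave 1 library from 4 pooled mice, so there was no replicate of either diet, no test between diets, and every interval below covers counting error only. The intervals take each counted molecule as independent, so the spread between cells of a class is not in them. The cells had been freed by digestion for 60 min at 37 °C and a Percoll gradient before the sort, and the labels' extraction text also mentions normal colon.

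Immediate early genes are transcribed within minutes of a stimulus from factors already present in the cell. Fos and Jun family proteins pair to form the AP-1 factor, Egr proteins are zinc finger factors, Nr4a1 is an orphan nuclear receptor (also called Nur77), and Ier2 is a short nuclear regulator of transcription. In lymphocytes Egr2, Egr3 and Nr4a1 are known as readouts of antigen receptor signals, while Fos and Jun also come on with mechanical stress, warming and enzymatic digestion. The comparison of these sets was set as Egr2, Egr3 and Nr4a1 on the one side against Fos and Jun on the other.

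The stretches before the start sites of the genes set against each other are shown because such stretches can hold short elements through which kinase signals reach genes. RefSeq windows (GRCm38.p6) matched 7 of the 10 genes, and Egr1, Egr3 and Ier2 were not matched. The 160 bases upstream of the start are given on the gene's own strand, and none lies in an exon annotated by GENCODE M21. Those of Egr2 and Nr4a1 lie inside the annotated span of the gene, between exons of its longer transcripts. Capitals mark TGACG (the core of a cyclic AMP response element, CGTCA on the other strand), TGANNTCA (AP-1-like), the CArG box bound by serum response factor, and TATAAA. They are for Fos chr12:85473730-85473889 (plus strand), for Jun chr4:95052223-95052382 (minus strand), for Egr2 chr10:67537709-67537868 (plus strand) and for Nr4a1 chr15:101266686-101266845 (plus strand).
Fos: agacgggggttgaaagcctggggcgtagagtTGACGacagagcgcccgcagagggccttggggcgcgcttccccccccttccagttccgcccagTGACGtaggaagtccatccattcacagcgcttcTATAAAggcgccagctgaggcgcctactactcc
Jun: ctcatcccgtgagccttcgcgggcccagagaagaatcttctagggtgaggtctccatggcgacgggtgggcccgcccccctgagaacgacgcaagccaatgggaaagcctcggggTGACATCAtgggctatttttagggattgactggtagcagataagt
Egr2: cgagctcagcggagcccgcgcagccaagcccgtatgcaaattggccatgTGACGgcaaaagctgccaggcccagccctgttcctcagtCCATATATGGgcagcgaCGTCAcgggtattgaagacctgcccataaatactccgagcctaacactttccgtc
Nr4a1: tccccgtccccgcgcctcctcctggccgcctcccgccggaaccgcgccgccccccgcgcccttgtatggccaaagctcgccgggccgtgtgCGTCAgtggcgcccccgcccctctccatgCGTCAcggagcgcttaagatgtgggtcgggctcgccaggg
Positions were counted back from the start site, on both strands, over 250 bases. Fos held TGACG at −129 and −66 and TATAAA at −33. Egr2 held TGACG at −111 and −55 on either side of a CArG box at −72, the only CArG box found in the 7 windows. Nr4a1 held 4 copies of TGACG, at −233 and −213 (before the printed stretch), −69 and −40, and Jun held the AP-1-like TGACATCA at −45. Of 32817 windows of that length in the table, 17.75% held TGACG, 11.94% held TGANNTCA, 12.37% held TATAAA and 1.47% held a CArG box. The genes themselves lie at chr12:85473890-85477273 (Fos, 4 exons), chr4:95049034-95052222 (Jun, 1 exon), chr10:67535475-67542188 (Egr2, 2 exons in its principal transcript) and chr15:101254269-101274795 (Nr4a1, 7 exons) in GRCm38. A match of letters is a description of the sequence and was not tied to any factor here. Elements further upstream, or with letters that depart from these exact patterns, were not searched, so a gene without a match may still have one.

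The ad libitum library held 6089 barcodes and 35712762 UMIs (unique molecular identifiers, 1 per captured RNA molecule), and the FMD library held 5877 and 35280790. After filtering, 4854 and 4598 cells remained, with medians of 5502.5 and 5731 UMIs per cell. The libraries shared 7 cell barcodes. Cells were clustered without the 10 genes and without 5 lists of related genes, and clusters were named "X-like" from markers. B-like cells had 1644.2 and 1604.9 CPM of the B cell gene Cd79a against 10.4 and 13.0 in T-like cells, and T-like cells had 454.6 and 440.1 CPM of the T cell gene Cd3e against 0.9 and 1.9 in B-like cells. Cells in unnamed clusters made up 12.0% and 11.0%. Throughout, paired values are ad libitum first and FMD second, a level is in CPM (UMIs of the gene scaled to 1000000 UMIs of the class outside immunoglobulin and mitochondrial genes), and a ratio is the log2 of FMD over ad libitum with its 95% counting interval. UMIs count molecules, so gene length does not enter a level. A gene was called lower or higher when its ratio lay past 0.32 on the log2 scale, with at least 100 UMIs over both libraries.

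Among the Fos family genes, Fos (the classical AP-1 partner of Jun) was lowest in regulatory T-like cells, at 74.1 and 100.1 CPM, and high in plasma-like cells (1128.2 and 755.7), neutrophil-like cells (776.6 and 1414.1) and macrophage or dendritic-like cells (953.9 and 919.3). B-like cells held an intermediate 514.2 and 395.6, and helper T-like cells 222.7 and 276.3. Plasma-like cells held most of these 3 in the ad libitum library and neutrophil-like cells in the FMD library. Fosb, a Fos relative, was instead highest in innate lymphoid-like cells, at 1495.1 and 1081.1, where only 24 ad libitum and 80 FMD cells were found. Germinal centre B-like cells held least Fosb, at 88.7 and 108.3.

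The Jun family genes differed in pattern over the classes. Jun itself was highest in plasma-like cells at 2317.7 and 1653.1 CPM and lowest in germinal centre B-like cells at 170.9 and 186.0, leaving out the 9 and 16 mast-like cells. Junb, which pairs with Fos and Batf proteins in lymphocytes, reached 5141.0 and 6169.7 in innate lymphoid-like and 4703.9 and 4921.4 in gamma delta T-like cells, against 1313.9 and 1095.7 in B-like cells. Every T-like class held more Junb than B-like cells in both libraries. Jund, the family member known for steady expression, was highest in plasma-like cells at 5931.6 and 4645.5 and lay between 874.5 and 2593.5 in the others.

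Egr1 and Egr3 were higher in B-like and germinal centre B-like than in T-like cells. Egr1 was at 383.2 and 249.2 CPM in B-like cells, 363.5 and 336.1 in germinal centre B-like cells and 361.2 and 474.8 in neutrophil-like cells, and at 62.5 and 72.7 in helper T-like cells. Egr3 was at 161.4 and 125.7 in B-like cells against 5.7 and 12.4 in helper T-like and 5.9 and 2.4 in regulatory T-like cells. Neutrophil-like cells held 133.7 and 20.4 of it, on 37 and 4 UMIs. Egr2 was scarce in all classes. It was best counted in B-like cells, at 26.0 and 19.7, which does not make them the highest class. Germinal centre B-like cells held under 100 UMIs of it and were not ranked. In innate lymphoid-like cells no Egr2 UMI was counted in either library.

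Nr4a1 and Ier2 were broader. Nr4a1 was highest in innate lymphoid-like cells (1184.6 and 1228.6 CPM), followed by B-like (770.2 and 559.6) and CD8 T-like cells (417.6 and 546.4), and lowest in plasma-like cells (60.5 and 42.1). In the FMD library the Nr4a1 intervals of B-like and CD8 T-like cells overlapped. Ier2 varied least among the Egr, Nr4a1 and Ier2 genes, from 127.8 in FMD regulatory T-like cells to 448.0 in FMD CD8 T-like cells. To gauge free RNA, Igha (a plasma cell transcript) was measured in T-like cells, leaving out 1 and 2 cells with 50 or more Igha UMIs, and stood at 1.03% and 0.93% of its mean over all cells. The same percent of the mean Egr3 level is 0.9 and 0.7 CPM, below the Egr3 level of each class named here.

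**Figure D1:**
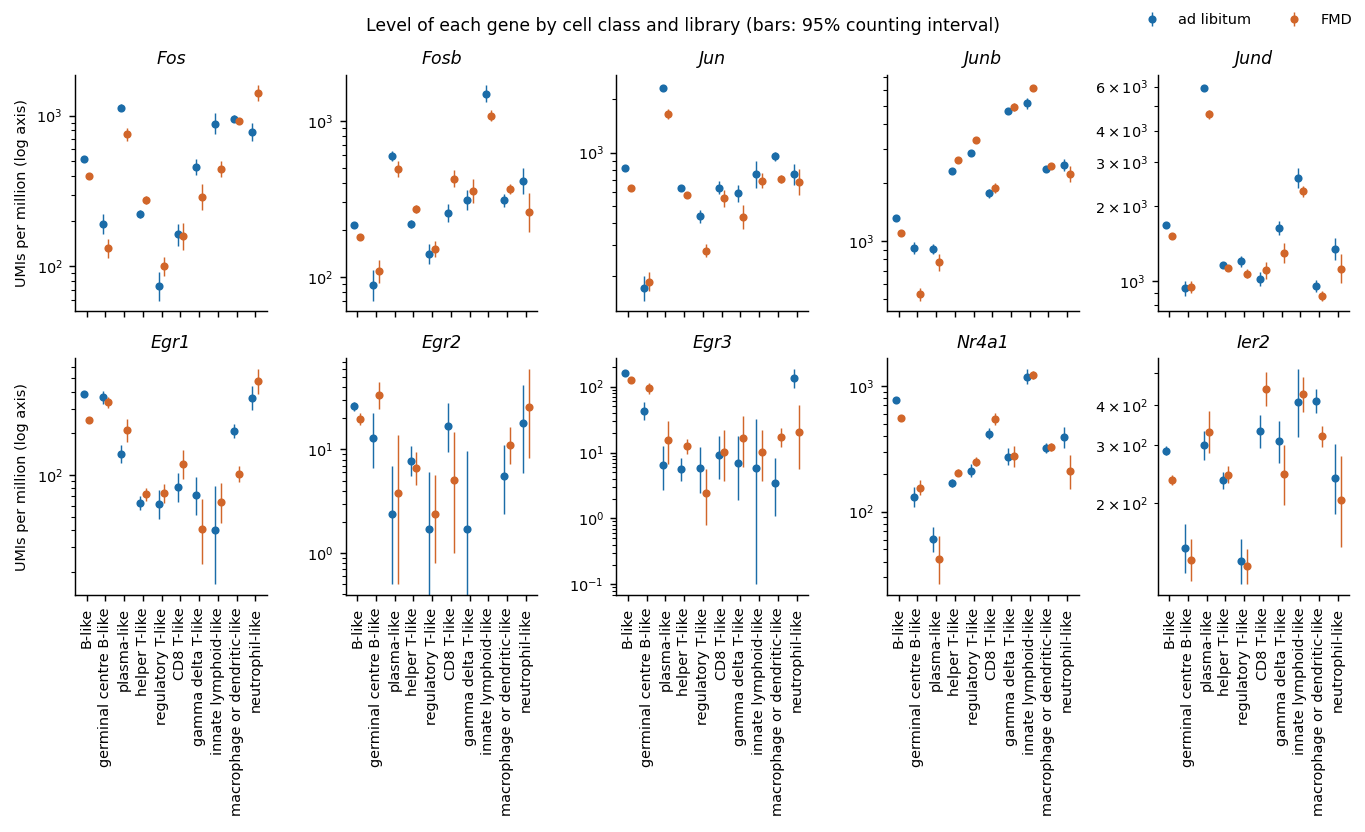
Level of each of the 10 genes (CPM, log axis) in 10 cell classes, blue for ad libitum and orange for FMD, with bars for the 95% counting interval; levels of 0 are not drawn. Egr3 stands at 161.4 and 125.7 in B-like cells and at 5.7 and 12.4 in helper T-like cells, while Junb is higher in all T-like classes than in B-like cells.

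In B-like cells all 10 genes were lower in the FMD library. The largest difference was that of Egr1, at 383.2 against 249.2 CPM, a ratio of −0.62 (−0.69 to −0.56). Nr4a1 was at 770.2 against 559.6 (−0.46, −0.50 to −0.42). Egr2 was at −0.40 (−0.64 to −0.16) and Egr3 at −0.36 (−0.45 to −0.27). Fos and Jun were both at −0.38, with intervals of −0.43 to −0.33 and −0.42 to −0.34. So the genes known as receptor readouts and those also moved by handling were lower by similar amounts. Ier2 (−0.30), Junb (−0.26), Fosb (−0.25) and Jund (−0.14) did not pass the threshold. The median over the 10 genes was −0.37, beside 0.01 over all 8455 genes with at least 100 UMIs, and 6 of the 10 were called lower and none higher, beside 4.7% and 4.49% of all genes. Since the 10 genes were listed with such values in view, this count describes them and supports nothing further. The B-like cells numbered 2738 and 2476, with median UMIs per cell of 4974.5 and 5119 and median mitochondrial shares of 5.10% and 5.24%.

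**Figure D2:**
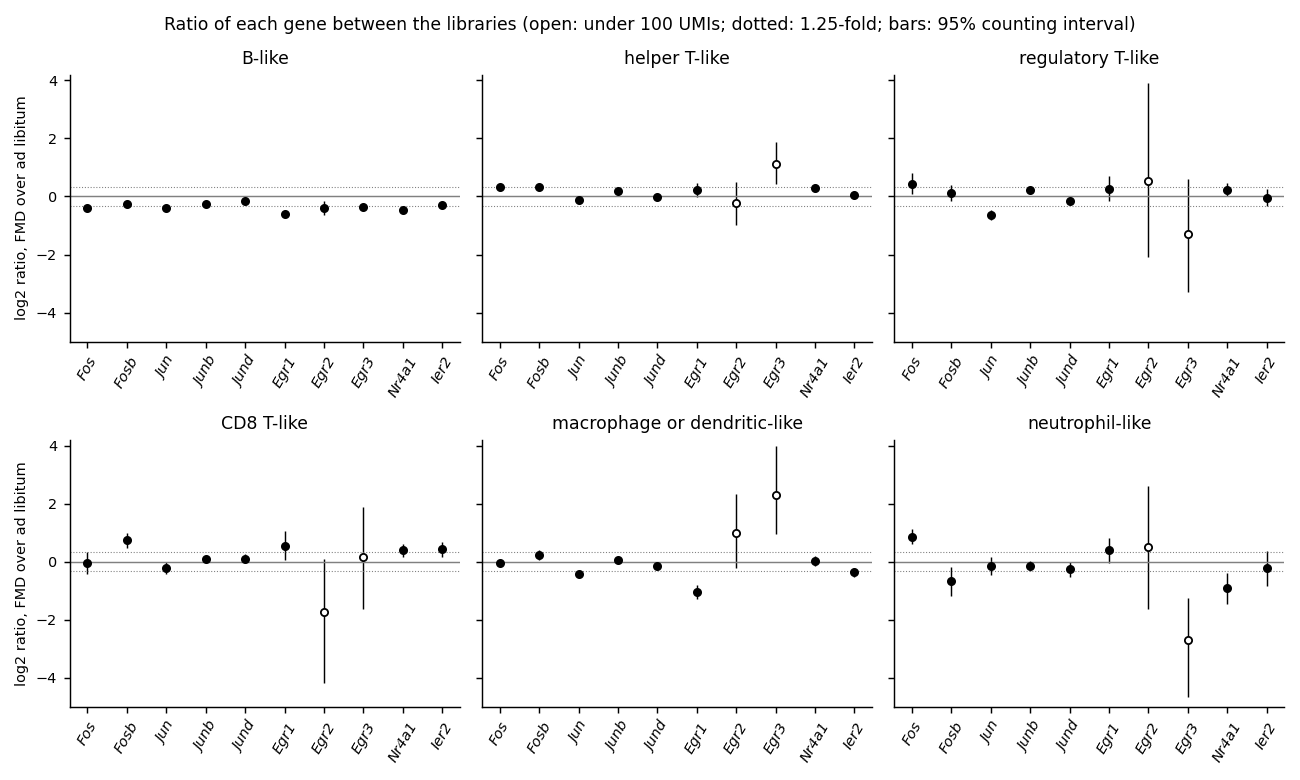
Ratio of each gene between the libraries (log2, FMD over ad libitum) in 6 classes; bars are 95% counting intervals, open points have under 100 UMIs, and dotted lines mark the threshold. All 10 genes lie below 0 in B-like cells, while in helper T-like cells Fos, Fosb, Junb and Nr4a1 lie above 0.

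The B-like cells fell into 6 clusters, named here by their leading gene, that held different levels of these genes. The cluster led by Myc (710 and 574 cells) held most Egr3, at 318.0 and 288.3 CPM, most Egr2 (64.2 and 57.1), Egr1 (701.0 and 536.4) and Nr4a1 (1335.3 and 1008.0). The cluster led by Hspb1, a heat shock gene (643 and 387 cells), held most Fos (742.1 and 583.8), Jun (1545.0 and 1479.7) and Fosb (338.2 and 297.2). Egr3 stood at 163.6 and 118.8 there, and Jun at 688.8 and 606.6 in the Myc cluster. The genes of the sets thus peaked in different B-like clusters, although none of them was used in the clustering. The sets were not cleanly separated. Egr2, Egr3 and Nr4a1 together were at 983.2 and 808.6 in the Hspb1 cluster, beside 957.6 and 705.0 in all B-like cells. Fos and Jun together were at 1202.0 and 1035.0 in the Myc cluster, beside 1330.9 and 1024.4. Clusters led by Scd1, Fcrla and Siglecg held least Egr3, between 55.0 and 75.4, and Egr2 at or below 12.6, while their Jun ranged from 207.6 to 645.7. Cluster levels are descriptions, because cells were grouped by the expression of the same cells.

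Within clusters the differences between libraries were smaller for some genes and as large for others. The median ratio over the genes with at least 100 UMIs was −0.18 in the Scd1, −0.17 in the Myc, −0.42 in the Fcrla, −0.35 in the Hspb1 and −0.24 in the Ifit3 cluster, an interferon-response cluster. In the Siglecg cluster only 4 genes had enough UMIs, with a median of −0.84. Egr1 was lower in FMD in each of the 5 larger clusters, from −0.67 in the Scd1 to −0.24 in the Ifit3 cluster, and the interval reached above 0 in the last. Jun was at −0.06 (−0.13 to 0.01) in the Hspb1 cluster and −0.63 (−0.77 to −0.48) in the Fcrla cluster. Nr4a1 was at −0.41 (−0.47 to −0.34) in the Myc cluster and −0.03 (−0.21 to 0.16) in the Ifit3 cluster. Fosb was higher in the Fcrla cluster, at 107.0 against 126.5 CPM (0.24, 0.02 to 0.46). Genes called lower numbered 3 in the Scd1 cluster beside 5.76% of all genes, 2 in the Myc cluster beside 6.81%, 7 in the Fcrla cluster beside 7.02%, 5 in the Hspb1 cluster beside 7.07%, 1 in the Ifit3 cluster beside 10.4% and 3 in the Siglecg cluster beside 16.1%.

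The mix of clusters also differed between the libraries. The Hspb1 cluster was 643 of the ad libitum and 387 of the FMD B-like cells, and the Fcrla cluster, low in these genes, 496 and 690. With each cluster given the same share in both libraries, all 10 ratios remained below 0, the median was −0.27, and 2 of 10 genes, Egr1 (−0.47) and Nr4a1 (−0.36), were called lower instead of 6. Jun moved most, from −0.38 to −0.17, and Fos stood at −0.29. Without the Hspb1 cluster the median was −0.30, with Egr1 at −0.58, Nr4a1 at −0.50, Fos at −0.29 and Jun at −0.30, and 4 genes were called lower.

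**Figure D3:**
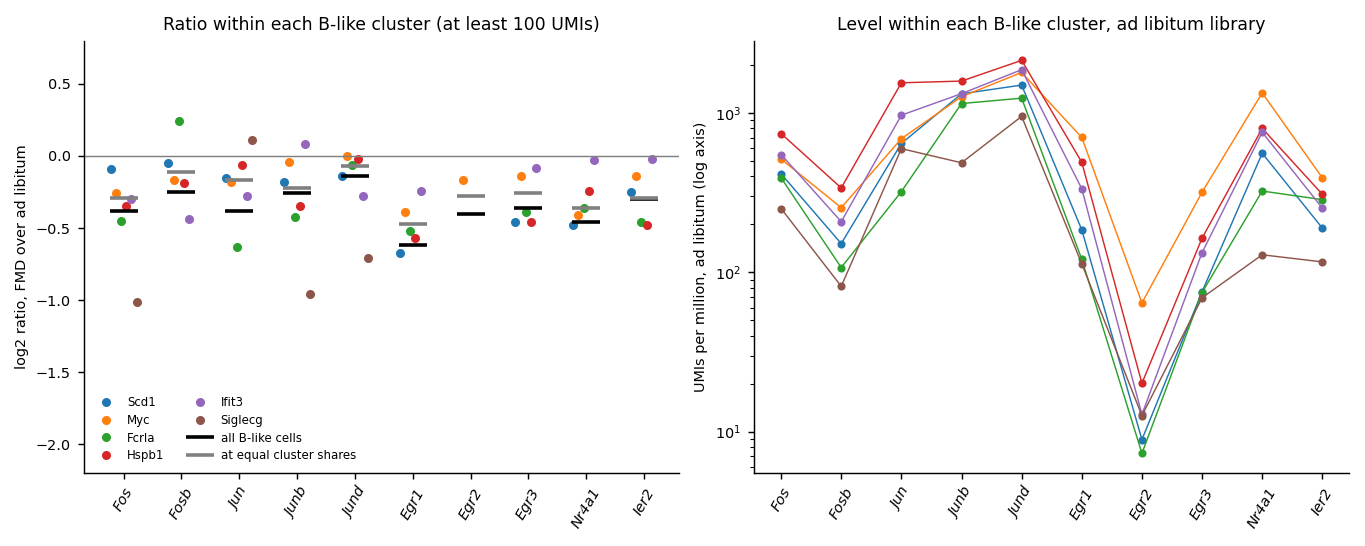
Left, ratio of each gene (log2, FMD over ad libitum) within each of the 6 B-like clusters, for genes with at least 100 UMIs, with all B-like cells as a black and equal cluster shares as a grey line; right, ad libitum levels by cluster (CPM, log axis). Egr2, Egr3 and Nr4a1 are highest in the Myc cluster and Fos and Jun in the Hspb1 cluster, and the grey line lies closer to 0 than the black one for each of the 10 genes.

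An unnamed cluster led by Bhlhe41 and Apoe, with Cd79a at 1591.5 and 1650.4 CPM, held 288 and 233 cells. No name was given, since markers of a different class outnumbered those of B cells in its top 10 genes. All 10 genes were lower there in FMD, with a median of −0.43, and 6 were called lower beside 11.0% of 4520 genes. Egr1 was at 425.4 against 219.9 (−0.95, −1.12 to −0.78) and Junb at 1269.9 against 937.1 (−0.44, −0.53 to −0.35). Egr3 was at 138.6 against 118.0, and its interval, −0.49 to 0.02, reached 0.

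Shares of cells with a UMI were compared after each cell was thinned to 1000 UMIs, which kept 2735 and 2473 B-like cells. Fos was seen in 31.12% (29.38 to 32.89, exact binomial interval) against 26.93% (25.19 to 28.73), and Jun in 38.65% against 31.66%. Nr4a1 was seen in 41.43% against 34.94%, Egr1 in 17.81% against 14.80% and Egr3 in 11.30% against 9.46%. Egr3 was seen in 0.15% and 1.26% of helper T-like cells thinned the same way, whose median depths before thinning were 6966.5 and 7039 UMIs. All 10 genes were seen in a smaller share of FMD B-like cells. Without thinning, the shares for Fos were 65.7% and 61.2%. Summed over the 10 genes, a B-like cell held a median of 5 against 4 and a mean of 6.01 against 5.02 UMIs per 1000. The share of cells with none was 4.86% and 6.19%, and that of cells with 20 or more 1.68% and 0.93%. In the thinned B-like cells the variance of UMIs per cell exceeded the mean for all 10 genes in both libraries. Variance over mean ran from 1.24 (Egr2) to 2.8 (Egr1) in the ad libitum library. In the FMD library it ran from 1.32 (Ier2) to 3.07 (Jun). In helper T-like cells it was 1.52 and 1.52 for Fos, 3.27 and 3.2 for Junb, and 1.0 and 0.99 for Egr2. The counting intervals do not include this spread.

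**Figure D4:**
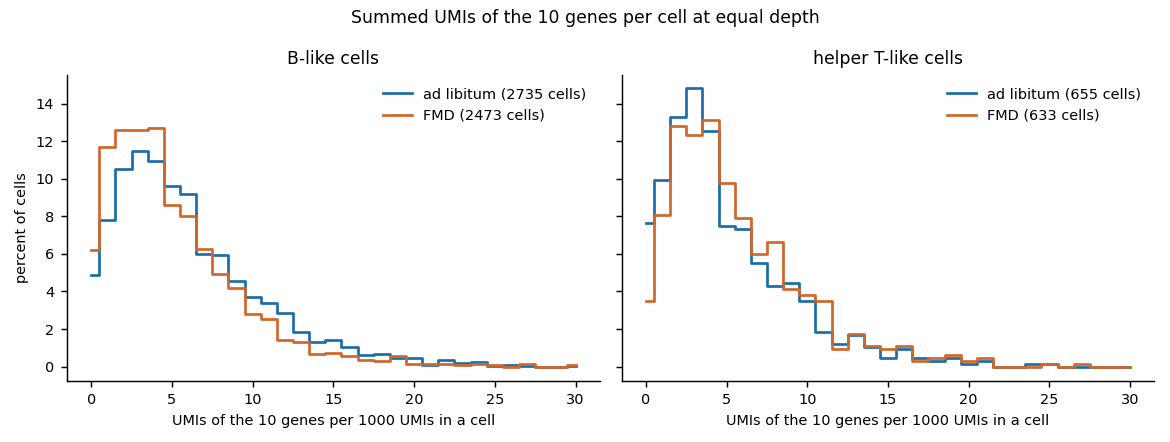
Percent of cells (y axis) by the summed UMIs of the 10 genes per 1000 UMIs in a cell (x axis), for B-like and helper T-like cells, blue for ad libitum and orange for FMD. In B-like cells the FMD curve lies to the left (mean 5.02 against 6.01), and in helper T-like cells to the right (5.66 against 4.99).

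Within B-like cells at equal depth, Egr3 was seen with Egr1 more than with Fos. Of ad libitum cells with an Egr1 UMI, 30.4% had an Egr3 UMI, against 7.2% of cells without one. The same shares were 26.5% and 6.5% in FMD. Of cells with a Fos UMI, 12.2% had an Egr3 UMI against 10.9% without in the ad libitum library, and 11.4% against 8.7% in the FMD library. In the ad libitum library Fos and Egr3 were thus seen together about as often as their single shares give, with 3.80% of cells holding both where the product of the shares is 3.52%. For Egr1 and Egr3 the share with both was 5.41% where the product is 2.01%. Egr3 also went with Nr4a1, seen in 64.4% of ad libitum cells with Egr3 against 38.5% without and in 57.3% against 32.6% in FMD. Jun went with Fos (49.5% against 33.8% and 40.8% against 28.3%). These are shares over cells of 1 library each and carry no test.

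In T-like cells the 10 genes did not all differ in 1 direction. Over all 1139 and 1178 T-like cells the median ratio was 0.06, and 1 gene was called lower (Egr2, 62 and 43 UMIs, −0.59) and 1 higher (Egr3, 55 and 80 UMIs, 0.48, with an interval of −0.03 to 1.01), beside 5.17% and 5.41% of 8294 genes. Jun was at 612.1 against 497.7 CPM (−0.30, −0.36 to −0.24), and Junb at 2455.9 against 2716.4 (0.15, 0.12 to 0.17). Fos was at 252.1 against 249.3 (−0.02, −0.10 to 0.07). Regulatory T-like cells made up 181 of the ad libitum and 290 of the FMD T-like cells, so the subclasses are given apart.

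Helper T-like cells (656 and 637) held slightly more of most genes in FMD. Fosb was at 218.8 against 272.7 CPM (0.32, 0.20 to 0.44), Fos at 222.7 against 276.3 (0.31, 0.19 to 0.43), Nr4a1 at 168.0 against 204.5 (0.28, 0.14 to 0.42) and Junb at 2308.7 against 2606.5 (0.18, 0.14 to 0.21). Jun was at 628.7 against 575.8 (−0.13, −0.20 to −0.05). None of the 8 genes with at least 100 UMIs passed the threshold, beside 5.42% of genes called higher and 8.38% called lower, and their median was 0.20. With equal cluster shares Fosb (0.41) and Nr4a1 (0.35) passed it. Egr3 had 26 and 56 UMIs (1.13, 0.44 to 1.86) and Egr2 36 and 30. The helper clusters differed. In the one led by Tnfsf11, with Il17f and Il22 among its top genes, Fos was at 155.3 against 219.0 (0.50, 0.28 to 0.71) and Fosb at 308.1 against 414.7 (0.43, 0.27 to 0.58), and 4 genes were called higher beside 6.05%. In the cluster led by Igfbp4 and Lef1, markers of naive T cells, Egr1 was at 40.9 against 85.0 (1.06, 0.51 to 1.63) and Jun at 730.5 against 561.5 (−0.38, −0.53 to −0.22).

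Regulatory T-like cells (181 and 290) held less Jun in FMD, at 435.1 against 278.0 CPM (−0.65, −0.82 to −0.47). Fos, at 74.1 against 100.1, differed the other way (0.44, 0.07 to 0.81), on 88 and 206 UMIs. Jun and Fos were the 1 gene called lower and the 1 called higher of 8, beside 8.35% and 12.3% of 4382 genes. With both clusters of this class given equal shares in the libraries (the one led by Il10 had 111 and 226 cells, the one led by Penk 70 and 64), Jun was at −0.85, Fos, at 0.30, was no longer called and Nr4a1, at 0.39, was. The lower Jun was found in both regulatory clusters, at 531.9 against 330.0 in the one led by Il10 and 300.2 against 79.6 in the one led by Penk (149 and 34 UMIs, −1.92, −2.50 to −1.37). Removing the cell with most Jun UMIs from each library left −0.62. Junb was at 2849.5 against 3302.1 (0.21, 0.15 to 0.27) and Nr4a1 at 212.1 against 249.8 (0.24, 0.02 to 0.46). Egr2 and Egr3 had at most 7 UMIs in a library.

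CD8 T-like cells (114 and 83) held more Fosb in FMD, at 255.7 against 425.9 CPM (0.74, 0.47 to 1.00). Egr1 (0.56, 0.07 to 1.06), Ier2 (0.43, 0.18 to 0.67) and Nr4a1 (0.39, 0.17 to 0.61) were also called higher, 4 of 8 genes beside 11.6% of 2137, and none was called lower beside 8.61%. Fos did not differ beyond its interval, at 163.0 against 159.5 (−0.42 to 0.35). Without the removal of doublets, in the matching cluster (120 and 90 cells), 3 genes were called higher, Fosb was at 0.56 and Nr4a1, at 0.27, was no longer called. With doublets kept the naming rule also put the Dapl1 cluster described below into this class (240 and 211 cells in all), where Fosb was at 0.28, Nr4a1 at −0.03 and no gene was called. In gamma delta T-like cells (70 and 48, the latter below the 50-cell rule) Fos was at 454.8 against 289.0 (−0.65, −0.99 to −0.32) and Jun at 586.7 against 433.5 (−0.44, −0.72 to −0.16), and with Jund (−0.34) and Ier2 (−0.33) 4 of 7 genes were called lower beside 11.8% and none higher beside 16.2%. Junb, their most abundant member, was at 4703.9 against 4921.4.

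The FMD library held more of these genes in an unnamed cluster led by Xcl1, Il22 and Klra7, whose leading genes mix T and natural killer cell markers (148 and 134 cells, Cd3e at 346.6 and 284.1 CPM). All 8 genes with at least 100 UMIs were above 0, with a median of 0.39, and 6 were called higher beside 12.8% of 2886 genes. Egr1 was at 101.6 against 195.0 (0.94, 0.59 to 1.29), Nr4a1 at 431.0 against 715.0 (0.73, 0.56 to 0.90) and Junb at 2336.3 against 3257.5 (0.48, 0.40 to 0.56). Fos, at 536.2 against 573.5, and Jun, at 1089.7 against 1163.8, had intervals that held 0. In a T-like cluster led by Dapl1 with Cd8b1 (118 and 120 cells) Jun was at 746.9 against 589.5 (−0.34, −0.50 to −0.18), the 1 gene called lower beside 10.2%. There 7 of the 8 genes with at least 100 UMIs lay below 0, with a median of −0.19, unlike in helper and CD8 T-like cells (medians of 0.20 and 0.25).

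Egr2, Egr3 and Nr4a1 UMIs were then set over Fos and Jun UMIs within each class, a measure that the scaling of the libraries does not enter. In B-like cells it was 0.720 (0.703 to 0.736) against 0.688 (0.670 to 0.707), a log2 difference of −0.06 (−0.12 to −0.01). The receptor set had a ratio of −0.44 and the Fos and Jun set of −0.38. In all T-like cells it was 0.252 (0.239 to 0.266) against 0.329 (0.313 to 0.345), a difference of 0.38 (0.28 to 0.48), with the receptor set at 0.17 and Fos and Jun at −0.21. The measure was thus higher in FMD in T-like and slightly lower in B-like cells, a contrast that was not tested. In T-like cells most receptor set UMIs were Nr4a1 (1672 of 1789 and 1973 of 2096). Nr4a1 also made up most of the set in B-like cells and nearly all of it in innate lymphoid-like cells. Over 10 random draws of cells thinned to 1000 UMIs, the difference ran from 0.19 to 0.44 in all T-like and from −0.11 to 0.10 in B-like cells.

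By subclass the measure was 0.213 against 0.262 in helper T-like (0.30, 0.15 to 0.45), 0.431 against 0.674 in regulatory T-like (0.64, 0.38 to 0.91), 0.557 against 0.792 in CD8 T-like (0.51, 0.23 to 0.78) and 0.272 against 0.404 in gamma delta T-like cells (0.57, 0.16 to 0.98). In helper T-like cells the receptor set was at 0.30 and Fos and Jun at 0.00, while in regulatory T-like cells Fos and Jun were at −0.43. These sums joined opposite signs. Fos was at 0.31 and Jun at −0.13 in helper T-like cells, and at 0.44 and −0.65 in regulatory T-like cells. Nr4a1, at 0.28 and 0.24, did not exceed Fos in either class, so the higher measure there was relative to Jun and not to Fos. Over the same 10 draws the thinned difference ran from 0.03 to 0.70 in helper T-like, 0.59 to 1.44 in regulatory T-like and −0.25 to 0.74 (median 0.11) in CD8 T-like cells. The unnamed Xcl1 cluster had 0.277 against 0.430. In the T-like cluster led by Dapl1 the values were close, at 0.110 against 0.117 (0.09, −0.28 to 0.46), with the receptor set at −0.23 and Fos and Jun at −0.31. Among B-like clusters only the Myc cluster stood above 1 in both libraries (1.429 and 1.308). The difference had both signs among B-like clusters, from −0.50 in the Siglecg cluster to 0.25 in the Ifit3 cluster. Germinal centre B-like cells stood at 0.516 against 0.887 (0.78, 0.45 to 1.11), innate lymphoid-like cells at 0.726 against 1.092 (0.59, 0.29 to 0.89) and macrophage or dendritic-like cells at 0.174 against 0.218 (0.33, 0.15 to 0.51). Over 10 draws of cells thinned to 1000 UMIs the last ran from −0.42 to 0.50, with a median of 0.24, and the value in germinal centre B-like cells from −0.64 to 2.34. Neutrophil-like cells had the opposite sign, at 0.354 (0.292 to 0.427) against 0.122 (0.089 to 0.163), a difference of −1.54 (−2.04 to −1.04), on 150 and 50 receptor set UMIs.

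**Figure D5:**
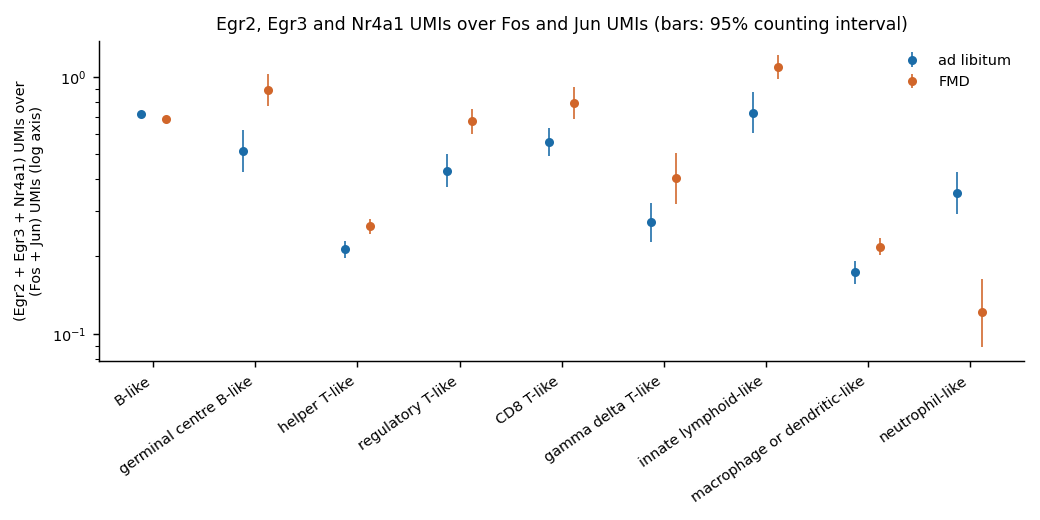
Egr2, Egr3 and Nr4a1 UMIs over Fos and Jun UMIs (log axis) by class, blue for ad libitum and orange for FMD, with 95% counting intervals; plasma-like cells (0.020 and 0.025) are not drawn. The FMD value is higher in each T-like class drawn, close to the ad libitum value in B-like cells (0.688 and 0.720) and lower in neutrophil-like cells (0.122 and 0.354). The T-like cluster led by Dapl1 is not drawn. In helper and regulatory T-like cells Fos and Jun differed in opposite directions between the libraries.

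Macrophage or dendritic-like cells (130 and 173) came mostly from a cluster of 126 and 167 cells led by Cxcl16 and Tgfbi. Lyz2 and the epithelial gene Krt15 were also among its top 10 genes. The other 4 and 6 cells formed a cluster led by Siglech and Ccr9. The values that follow are for both clusters together. Jun was at 951.1 against 709.5 CPM (−0.42, −0.53 to −0.32), Ier2 at 411.2 against 320.3 (−0.36, −0.52 to −0.20) and Egr1 at 208.8 against 101.6 (−1.04, −1.29 to −0.79), 3 of 8 genes called lower beside 14.8% of 4410 and none higher beside 12.7%. Of the 297 ad libitum Egr1 UMIs, 161 came from 1 cell. Epithelial markers summed to 416.8 against 44.4 CPM in this class. Without the 4 and 4 cells with at least 5 epithelial marker UMIs, Egr1 was at −0.02 and Jun at −0.28. As a mean of each cell's share, with cells weighted equally, Egr1 was at 0.32. Fos, at 953.9 against 919.3 (−0.05, −0.15 to 0.05), and Nr4a1, at 321.9 against 327.4 (0.02, −0.15 to 0.20), did not differ beyond their intervals. Egr3 had 5 and 39 UMIs (interval of the ratio 0.96 to 4.00), of which 1 FMD cell held 12.

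In neutrophil-like cells (69 and 54) Fos was higher in FMD, at 776.6 against 1414.1 CPM (0.86, 0.60 to 1.13). Nr4a1 was lower, at 390.1 against 209.3 (−0.90, −1.45 to −0.37), and so was Fosb, at 411.8 against 260.4 (−0.66, −1.17 to −0.17). Egr3 had 37 and 4 UMIs (−2.71, −4.66 to −1.23). The highest single ad libitum cell held 5 of the 37. With Egr1 (0.39, −0.03 to 0.82) beside Fos, 2 of 8 genes were called higher and 2 lower, beside 25.1% and 18.6% of 629 genes. Fos stayed at 1.01 and Nr4a1 at −1.10 without the cell with most UMIs in each library. Epithelial markers were at 21.7 against 112.3 CPM, and without 1 FMD cell with at least 5 such UMIs Fos was at 0.88. The innate lymphoid-like cells had too few ad libitum cells (24) for the 50-cell rule. Fos was at 885.6 against 442.5 there and Fosb at 1495.1 against 1081.1, the 2 genes called lower of 7 beside 13.6%, with none called higher beside 15.9%, while Junb was at 5141.0 against 6169.7.

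Germinal centre B-like cells (71 and 83), dividing B cells led by Rgs13 and Mki67 among others, are given apart from the other B-like cells, and the differences between the 2 were not tested. Egr3 was higher in FMD there, at 43.3 against 94.1 CPM (1.12, 0.60 to 1.67), the 1 of 9 genes called higher beside 11.4% of 3617. Egr2 had 12 and 45 UMIs. Junb was lower, at 916.2 against 528.8 (−0.79, −0.94 to −0.65), as was Fos (−0.53, −0.84 to −0.23), 2 genes called lower beside 12.3%. Cd3e, a T cell gene, stood at 71.4 and 43.3 CPM in this class. Without the 10 and 7 cells with a Cd3e UMI, Junb was at −0.35 and Egr3 at 1.22. In plasma-like cells, with 90 ad libitum and 32 FMD cells (below the 50-cell rule), Fos (−0.58), Jun (−0.49) and Jund (−0.35) were called lower and Egr1 (0.57) higher of 7 genes, beside 10.1% and 14.5%.

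Genes around the members were taken from 5 lists, chosen with earlier results of these data known. In B-like cells the heat shock chaperones, which refold proteins and respond to warming and stress, were lower in FMD with a median of −0.34, and 6 of 12 measured were called lower and none higher, beside 4.7% and 4.49% of all genes. Hspa1a was at 808.3 against 454.6 CPM (−0.83), Dnajb1 at −0.76 and Hspa1b at −0.71, while Hspa8 (−0.16), Hspb1 (−0.07) and Hsp90ab1 (−0.04) were nearest 0. The chaperone list as a whole took 0.85% and 0.70% of the UMIs of B-like cells and 0.96% and 0.86% of those of T-like cells. Its part in the difference of the members was not tested. The value without the Hspb1 cluster is no test of it. The chaperone median was −0.11 in that cluster and −0.55 in the Fcrla cluster, which stayed in.

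Feedback inhibitors and mRNA decay factors, which end immediate early responses, had a median of −0.14 in B-like cells with 4 of 22 called lower, beside the same 4.7% of all genes. Dusp2, a phosphatase of MAP kinases, was at 455.0 against 323.7 (−0.49), Ppp1r15a at −0.39 and Dusp1 at −0.38, and Dusp5 (0.14), Tnfaip3 (0.06) and Dusp6 (0.02) were highest. Genes induced by antigen receptor signals had a median of −0.05, with 3 of 13 called lower: the chemokine genes Ccl4 (92.8 against 48.6, −0.93) and Ccl3 (−0.53) and Myc (−0.33). The kinase Pim1 was at 0.22, Nfkbie, an inhibitor of NF-kB, at 0.14 and Tnfaip3 at 0.06. Of other members of the same families, Atf3 (−0.57) and Maff (−0.39) were called lower and Fosl2 higher, at 56.0 against 90.8 (0.70, 0.56 to 0.83), of 6 measured with a median of −0.11; Nr4a2 was at −0.21, Nr4a3 at 0.14 and Batf at −0.01. Of 14 upstream kinases and factors none was called, from Mapk3 (−0.24), Elk1 (−0.20) and Elk3 (−0.16) to Srf (0.12), Rps6ka3 (0.09) and Crem (0.08).

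In all T-like cells the chaperones had a median of −0.24 with 4 of 13 called lower (5.17% of all genes were called lower and 5.41% higher in this class, which holds for the counts that follow), from Hspb1 (−1.34, on 102 and 42 UMIs), Hsph1 (−0.47) and Hspd1 (−0.46) to Dnajb4 (−0.11), Hspa8 (−0.06) and Bag3 (0.00). The other 4 lists had medians between −0.09 and 0.00. Family members called lower were Batf3 (11.2 against 2.7 CPM, −2.06) and Jdp2 (−0.87), with Nr4a2 at −0.27, and the 1 called higher was Atf3 (0.36), with Nr4a3 at 0.17 and Fosl2 at 0.16. Of the receptor-induced genes Irf4, a factor of T cell activation, was at 71.9 against 48.7 (−0.56), the 1 of 14 called lower, with Il2ra at −0.27 and Ccl4 at −0.26, and Nfatc1 (0.13), Rel (0.07) and Pim1 (0.05) were highest. Of the feedback list, 3 of 24 were called lower, including Klf10 (−0.46), Ier3 (−0.34) and Dusp2 (−0.32), and 2 higher, Gadd45a (0.35) and Spry1 (0.34), with Dusp4 at 0.32. The upstream list had no gene called of 13, with Elk3 (−0.17), Rps6ka3 (−0.15) and Srf (−0.15) lowest and Elk4 (0.07) and Braf (0.07) among the highest. Atf3 thus stood below 0 in B-like and above 0 in T-like cells, as Fosb and Nr4a1 did.

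Patterns across classes were compared by Pearson's r of log2(CPM + 10) over 14 points, 7 classes in each of the 2 libraries, among 5343 genes. Points of 1 class share cell type and points of 1 library share depth and handling, so these values are descriptions. Among the genes most like Fos were Zfp36 (r = 0.957), an mRNA decay factor and itself an immediate early gene, with Oasl1 (0.939), Plaur (0.912) and Tyrobp (0.908), of which Tyrobp is known from myeloid cells. Those most like Egr3 were Ciart (0.913), Atp2c1 (0.890), Ublcp1 (0.878), Cnr2 (0.878) and Treml2 (0.876), of which Cnr2 is known from B cells. Among the members, Egr3 was most like Egr2 (0.78) and Egr1 (0.75), Fosb was like Ier2 (0.82) and Jun (0.81), and Junb ran opposite to Egr2 (−0.69) and Egr3 (−0.64). Fos and Egr3 had an r of 0.27.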

How the data were processed

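Droplet single-cell RNA-seq gave 1 library per diet, each from 4 pooled mice. GRCm38 and 3 programs (Seurat 2.3.4, CASAVA 1.8 and Cell Ranger 3.1.0) are listed, without their roles, in the submitters' processing notes. Per the file headers, Cell Ranger 3.1.0 wrote the matrices. The deposited values are raw UMI counts per gene and barcode; barcode and gene lists name their rows and columns, and 65 symbols occur on more than 1 line. No barcode had under 500 UMIs.

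Cells were kept with at least 200 genes and at most 20% mitochondrial UMIs, which removed 475 and 661 ad libitum and 441 and 694 FMD barcodes. Scrublet called 2 cells in each library (0.04%). Cells with at least 5 UMIs, and 0.5 per 1000, of each of at least 2 lineage panels were therefore removed too, a rule chosen after the Scrublet result was seen. The panels were chosen after fuller marker lists were seen to mark many cells. By either rule 99 and 144 cells were removed. Clustering (scanpy 1.11.5, leidenalg 0.10.2, 2000 variable genes, 30 components, 15 neighbors, resolution 1, seed 1) gave 24 clusters. Named were all 10 genes in classes of at least 50 cells per library (smaller and unnamed ones are marked as such), of each list the 3 highest and 3 lowest ratios, and the 5 genes most like Fos and Egr3, among genes reaching 50 CPM. Ratios have exact 95% intervals from the split of UMIs, and the code was tested on simulated data. A few genes that this rule names are not reported here. The members and lists were chosen with earlier results of these data known. Alternatives changed scaling, filters, clustering, thinning and weighting.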

Additional observations from a re-analysis of the deposited data

Results flagged for a closer look

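Several genes had counting intervals on opposite sides of 0 in 2 classes of the same libraries. These intervals leave out the spread between cells. They are too narrow for genes whose UMIs varied more between cells than counting alone gives. Only the members were searched for this. The share of all genes that would meet the same rule was not counted, so the list does not set the members apart from other genes. The difference between the classes was not tested, since each diet has 1 library, and cells of a class are not replicates. Between B-like and helper T-like cells this was so for Fos (−0.38 and 0.31), Fosb (−0.25 and 0.32), Junb (−0.26 and 0.18) and Nr4a1 (−0.46 and 0.28). Between B-like and regulatory T-like cells it was so for Fos (−0.38 and 0.44), Junb (−0.26 and 0.21) and Nr4a1 (−0.46 and 0.24). Against CD8 T-like cells it was so for Fosb (−0.25 and 0.74), Egr1 (−0.62 and 0.56), Nr4a1 (−0.46 and 0.39) and Ier2 (−0.30 and 0.43), and against neutrophil-like cells for Fos (−0.38 and 0.86). Fosb differed in sign between macrophage or dendritic-like (0.24) and neutrophil-like cells (−0.66). Without the removal of doublets Nr4a1 was at 0.27 in the matching CD8 T-like cluster, and at −0.03 with the Dapl1 cluster that the naming rule then added to the class.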

How the results depend on the processing

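No paired analysis was possible because each diet has 1 library, so the groups share fewer than 2 replicate numbers, and no replicate could be left out. In B-like cells the median ratio of the 10 genes (−0.37) stayed between −0.39 and −0.27 under 11 alternatives, with 2 to 6 genes called lower. With a threshold of 1.5-fold, 1 gene was called lower in B-like cells in place of 6 (beside 0.662% of all genes) and 1 called higher in CD8 T-like cells in place of 4 (beside 1.68%). With at least 20 in place of 100 UMIs, 8.93% in place of 4.7% of all genes were called lower in B-like cells. Without doublet removal, where CD8 T-like also took in the Dapl1 and all T-like the Xcl1 cluster, the median was −0.03 in CD8 T-like and −0.27 in germinal centre B-like cells, and the receptor over Fos and Jun difference was 0.49 in all T-like and 0.47 in helper T-like cells. Held to matching clusters, a setting added after seeing the data, the CD8 T-like median was 0.21 and the all T-like difference 0.48. In 1 random draw of cells thinned to 1000 UMIs that difference was 0.06 in CD8 T-like, 0.18 in all T-like, 1.09 in regulatory T-like and −0.29 in macrophage or dendritic-like cells, and Egr1 in the last was at 0.05; over 10 further draws these ran from −0.25 to 0.74, 0.19 to 0.44, 0.59 to 1.44, −0.42 to 0.50 and, for Egr1, −0.49 to 0.68. With cells weighted equally, macrophage or dendritic-like cells had a median of 0.12, a receptor difference of 0.10 and Egr1 at 0.32. Without the cell with most UMIs of each gene the germinal centre B-like receptor difference was 1.14. Of alternatives chosen after seeing the data, equal cluster shares gave a receptor difference of 0.98 in regulatory T-like cells, leaving out the Hspb1 cluster gave −0.17 in B-like cells, and leaving out cells with epithelial marker UMIs gave 0.14 in macrophage or dendritic-like cells. Nr4a1 in CD8 T-like cells was at −0.03 without doublet removal (0.27 in the matching cluster), and the difference in the share of T-like cells with a Junb UMI was −0.6 percentage points without thinning. The cause of the other changes was not tested. Of the ratios of single genes recomputed under settings listed at the outset, 541 stayed within their counting intervals and 69 moved past them. A further 3, past the threshold in the main setting, changed sign. Sign changes of genes not past the threshold were not counted apart. With a mitochondrial limit of 10%, neutrophil-like cells fell to 48 FMD cells, under the 50-cell rule, and gave no value. Outside B lineage cells Egr2 and Egr3 mostly had under 100 UMIs, too few to show a difference of the size seen in B-like cells. With 1 library per diet, diet and library cannot be told apart.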
